A study of Mus musculus with 24 samples.

Results

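BV2, an immortalised mouse microglial line, was treated for 72 h with the cytokine interleukin-10 (IL-10) or with transforming growth factor beta, here called TGF-β, each at 50 ng/mL, and the microRNA precursor counts of the cells are set against each other here. The comparison uses 6 of the 24 libraries of the series, 3 of IL-10 cells and 3 of TGF-β cells, chosen by the group name in the column headers of the count tables. BV2 cells with no added cytokine (3 control libraries) serve as a level to read both groups against and are not part of the contrast. The fit in cells also holds 3 libraries of BV2 cells given lipopolysaccharide (LPS, 100 ng/mL, 72 h). The LPS and control libraries enter the estimate of spread, the scaling and the filter that chooses the tested precursors, but not the contrast. The same cytokine pair is available in the extracellular vesicles (EVs) that the cells released, with 3 libraries each. All groups come from a single cell line, and the labels name neither the TGF-β isoform nor whether the libraries of a group are separate cultures. The p-values therefore measure the spread between these libraries, which may be technical. Each library is a bulk sample, so fewer cells with a microRNA and less of it per cell cannot be told apart.

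IL-10 and TGF-β are both cytokines that restrain inflammatory microglia and macrophages, but they signal through different receptors. IL-10 acts mainly through STAT3, and TGF-β through receptor kinases that phosphorylate SMAD2 and SMAD3. A microRNA is cut from a hairpin precursor by Drosha and Dicer, and its seed, bases 2 to 8 from the 5′ end, pairs with target messages. Precursors that lie close together are often transcribed as a single cluster, and precursors with a shared seed are counted as a family with overlapping targets.

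The mature arms below belong to the precursors that the comparison turns on, grouped by whether the precursor was higher in IL-10 cells or in TGF-β cells. They are the arm commonly taken as the guide, copied from RefSeq (GRCm38.p6) 5′ to 3′ with the seed in capitals. RefSeq gave a sequence for 56 of the 57 precursors looked up. The deposited counts are per precursor, so the level of each arm was not measured. The first set belongs to precursors that were higher in IL-10 cells, and it shows the shared seed of miR-221 and miR-222 and the separate seeds within the mir-322 cluster.
miR-21a-5p: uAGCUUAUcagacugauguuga
miR-222-3p: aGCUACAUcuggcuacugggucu
miR-221-3p: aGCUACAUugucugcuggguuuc
miR-322-5p: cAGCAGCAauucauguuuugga
miR-503-5p: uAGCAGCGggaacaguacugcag
miR-351-5p: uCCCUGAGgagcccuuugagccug
miR-223-3p: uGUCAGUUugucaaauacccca
miR-342-3p: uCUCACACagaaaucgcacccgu
miR-511-3p: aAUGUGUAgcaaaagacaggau
miR-501-3p: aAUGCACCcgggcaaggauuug
miR-500-3p: aAUGCACCugggcaaggguuca
The second set belongs to precursors that were lower in IL-10 cells than in TGF-β cells. miR-17-5p and let-7a-5p, whose precursors did not pass between IL-10 and TGF-β cells, are added to show the seeds they share with miR-93-5p and let-7i-5p.
miR-504-5p: aGACCCUGgucugcacucuauc
miR-34a-5p: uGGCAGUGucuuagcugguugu
miR-744-5p: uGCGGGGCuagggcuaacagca
miR-92a-3p: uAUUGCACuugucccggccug
miR-93-5p: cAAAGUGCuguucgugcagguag
miR-17-5p: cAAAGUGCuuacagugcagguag
let-7i-5p: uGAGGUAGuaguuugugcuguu
let-7j: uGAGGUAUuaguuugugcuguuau
let-7a-5p: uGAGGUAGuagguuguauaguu

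The IL-10 cell libraries held 340140 to 352120 precursor counts and the TGF-β cell libraries 283222 to 323300, with 406 to 420 and 402 to 410 precursors at 1 count or more. A count of 0 allows up to 3 counts, which is 8.52 to 8.82 CPM (counts divided by the library total and brought to a common size) in an IL-10 library and 9.28 to 10.6 CPM in a TGF-β library; this limit covers counting error only. The let-7 family took 57.3% ± 2.28 of the counts in IL-10 cells and 51.7% ± 2.39 in TGF-β cells (SD, n = 3 each), and mir-5099 took 9.64% ± 1.42 and 12.1% ± 2.11. Levels below are CPM scaled by edgeR's TMM factors (normalised CPM), since those shares differ between libraries. Of the microglial and macrophage markers, mir-223, mir-142a, mir-511 and mir-342 had counts in all 6 libraries, and mir-142b had 1 count over the IL-10 libraries and 0 over the TGF-β libraries. The summed level of 11 precursors of neurons and other glia was 120 to 186 normalised CPM in IL-10 cells and 149 to 201 in TGF-β cells. Over the 3 libraries of each group, mir-128-1 had 71 counts in IL-10 and 67 in TGF-β cells, and mir-128-2 had 65 and 67. mir-338 had 20 and 18, mir-219a-1 had 2 and 3, mir-219a-2 had 1 and 1, and each mir-124 and mir-9 precursor had 0 or 1. The summed level of 15 precursors of muscle, liver, red cells, epithelium and endothelium was 87.5 to 153 and 143 to 198. Of these, mir-126a had 106 counts over the IL-10 libraries and 139 over the TGF-β libraries. In the same order, mir-200c had 9 and 17, mir-200b 3 and 6, mir-141 4 and 0, mir-429 0 and 3, and mir-1a-1 3 and 1. mir-122, mir-203, mir-486a and mir-486b had 2 or fewer in each group. mir-206, mir-451a, mir-144, mir-200a and mir-205 were at 0 in both groups.

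Of 259 precursors tested, 38 (14.7%) differed between IL-10 and TGF-β cells by edgeR's quasi-likelihood test at a Benjamini-Hochberg adjusted p under 0.05. In IL-10 cells 21 of them (8.11%) were higher and 17 (6.56%) were lower. The median difference over all tested precursors was 0.00 on the log2 scale (IL-10 minus TGF-β, as are all log2 differences below unless another pair is named). The higher ones held the larger changes, with 9 of 21 beyond a 2-fold difference, against 3 of the 17 lower ones. The lower ones were more abundant, with 9 of 17 above a mean of 1000 normalised CPM, against 2 of 21 higher ones, mir-21a and mir-674. The 3 libraries of each group did not overlap for 59 of the 259 (22.8%), with IL-10 above in 32 (12.4%) and below in 27 (10.4%), and for 36 of the 38 that passed the test. The 2 that overlapped were mir-106a and mir-1981. Without TGF-β library 3 the count fell to 27, with 13 higher and 14 lower.

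**Figure D1:**
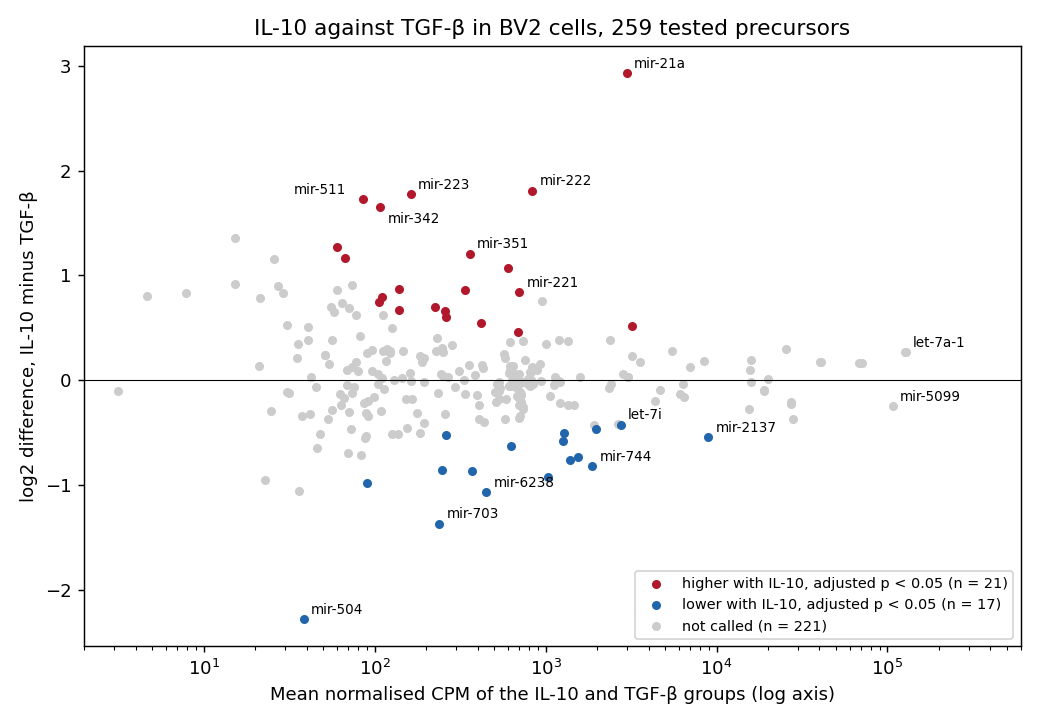
Difference between IL-10 and TGF-β cells (vertical axis, log2, IL-10 minus TGF-β) against the mean normalised CPM of both groups (horizontal log axis) for the 259 tested precursors, with the 21 higher in red, the 17 lower in blue and the 221 others in grey. mir-21a lies alone at the top at 2.93, mir-504 lies lowest at -2.27, and the most abundant precursors on the right lie near 0.

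mir-21a was the precursor that differed most. miR-21 is abundant in activated macrophages, is a known target of STAT3, and represses the translation inhibitor Pdcd4. Its precursor lies on chromosome 11 within a transcript of Vmp1. mir-21a stood at 5267, 5240 and 5340 normalised CPM in the 3 IL-10 libraries, against 651, 809 and 621 in the 3 TGF-β libraries. The IL-10 libraries were close to each other and every one of them was far above every TGF-β library. The difference was 2.93 ± 0.15 on the log2 scale (± SE), or 7.61-fold, with an edgeR adjusted p of 4.32e-13. In raw shares, mir-21a took 0.523% ± 0.0514 of the counts in IL-10 cells and 0.0711% ± 0.00684 in TGF-β cells (SD, n = 3 each). Control cells lay between the cytokine groups, at 1205, 1506 and 1528 normalised CPM. Against these controls mir-21a rose by 1.90 ± 0.14 in IL-10 cells and fell by 1.03 ± 0.14 in TGF-β cells (log2, edgeR adjusted p 9.48e-10 and 4.14e-05). These control comparisons share the same 3 libraries, as do all the pairs of control values that follow.

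The neighbours mir-221 and mir-222 on the X chromosome share a seed and are known for repressing the cell cycle inhibitor Cdkn1b. Both were higher in IL-10 cells. mir-222 had 1358, 1213 and 1323 normalised CPM in IL-10 libraries, against 370, 329 and 410 in TGF-β libraries. Every IL-10 library was far above every TGF-β library, and the difference was 1.81 ± 0.14 (log2, 3.50-fold, edgeR adjusted p 1.03e-09). mir-221 had 820, 967 and 915 normalised CPM in IL-10 libraries, against 512, 521 and 475 in TGF-β libraries, a smaller difference of 0.84 ± 0.14 (edgeR adjusted p 0.000147). For mir-222 the control mean of 766 ± 46.2 normalised CPM (SD, n = 3) lay between the groups, and both cytokines differed from it, by 0.76 ± 0.13 for IL-10 and -1.05 ± 0.14 for TGF-β (edgeR adjusted p 0.000371 and 4.14e-05). For mir-221 neither difference from control passed, at 0.39 ± 0.14 and -0.45 ± 0.14 (edgeR adjusted p 0.0694 and 0.06).

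A further X-chromosome cluster holds mir-322, mir-503 and mir-351. miR-322, the mouse counterpart of human miR-424, has the seed of the miR-15/16 family, which represses cyclins, and miR-351 has the seed of miR-125. Of the 7 listed precursors of this cluster 4 were tested, and 3 were higher in IL-10 cells, beside 8.11% over all tested precursors. mir-322 had 779, 884 and 792 normalised CPM in IL-10 libraries, against 345, 416 and 402 in TGF-β libraries (1.07 ± 0.14, edgeR adjusted p 6.4e-06). mir-351 had 465, 522 and 523 in IL-10 libraries, against 228, 221 and 205 in TGF-β libraries (1.21 ± 0.15, edgeR adjusted p 5.37e-06). The groups were well apart in both. mir-503 was scarcer, at 87.5, 79.8 and 87.7 normalised CPM in IL-10 libraries, against 46.2, 41.6 and 19.7 in TGF-β libraries (1.27 ± 0.33, edgeR adjusted p 0.00987), and without TGF-β library 3 it did not pass (0.96, adjusted p 0.0787). mir-450b, the remaining tested member, differed by 0.53 ± 0.47 (edgeR adjusted p 0.543). Read against control cells, all 3 fell in TGF-β cells and none passed in IL-10 cells. mir-351 fell by 1.06 ± 0.15 in TGF-β cells (edgeR adjusted p 4.14e-05) and differed by 0.15 ± 0.14 in IL-10 cells (adjusted p 0.497). mir-503 fell by 1.40 ± 0.33 in TGF-β cells, against a difference of -0.13 ± 0.28 in IL-10 cells (edgeR adjusted p 0.00754 and 0.808). mir-322 fell by 0.69 ± 0.14 in TGF-β cells, against 0.38 ± 0.13 in IL-10 cells (edgeR adjusted p 0.00186 and 0.0694).

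Precursors outside this cluster with the seed of mir-322 or mir-351 did not pass. Of 5 tested precursors with the seed AGCAGCA, mir-322 alone passed, beside 8.11% higher over all tested precursors. The others, mir-15a, mir-15b, mir-16-1 and mir-16-2, lay between -0.13 and 0.15 on the log2 scale. The CCCUGAG seed of miR-351 also occurs in miR-125b, whose copies mir-125b-1 and mir-125b-2 had differences of 0.83 ± 0.42 and 0.90 ± 0.44 that did not pass (edgeR adjusted p 0.224 and 0.209).

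The list of myeloid precursors holds 8 that are tabulated, of which 7 were tested, 4 were higher in IL-10 cells and none was lower, beside 8.11% higher over all tested precursors. The median log2 difference of those tested was 1.66, against 0.00 over all tested precursors, and the list includes mir-21a. The summed level of the 8 was 10329 to 11168 normalised CPM in IL-10 cells and 4514 to 5683 in TGF-β cells, with 4730 to 5942 in control cells. Most of that gap was mir-21a: without it the other 7 summed to 4989 to 5928 in IL-10 cells and 3892 to 4874 in TGF-β cells, with 3525 to 4434 in control cells. mir-223, which restrains the activation of neutrophils and macrophages, had 243, 209 and 301 normalised CPM in IL-10 libraries, against 99.6, 83.1 and 42.2 in TGF-β libraries. The groups were apart, and the difference was 1.78 ± 0.25 (log2, edgeR adjusted p 1.34e-05). Its control mean of 239 ± 41.1 (SD, n = 3) was near that of IL-10 cells, with differences from control of 0.08 ± 0.20 for IL-10 and -1.70 ± 0.25 for TGF-β (edgeR adjusted p 0.835 and 4.14e-05).

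mir-342, which lies in an intron of Evl on chromosome 12, had the reverse relation to control cells. It had 169, 163 and 159 normalised CPM in IL-10 libraries, against 56.9, 48.0 and 50.6 in TGF-β libraries, a difference of 1.66 ± 0.23 (log2, 3.15-fold, edgeR adjusted p 1.34e-05). Control cells averaged 55.8 ± 5.91 (SD, n = 3), so that mir-342 rose by 1.54 ± 0.22 in IL-10 cells (edgeR adjusted p 3.85e-05) and differed by -0.11 ± 0.26 in TGF-β cells (adjusted p 0.798). mir-511 lies in an intron of Mrc1, the mannose receptor gene of alternatively activated macrophages. It had 128, 143 and 121 normalised CPM in IL-10 libraries, against 39.1, 48.0 and 30.9 in TGF-β libraries (1.73 ± 0.32, edgeR adjusted p 0.000398). Neither cytokine passed against control cells for mir-511, at 0.87 ± 0.28 and -0.86 ± 0.34 (edgeR adjusted p 0.0613 and 0.129). mir-142a, expressed across blood cell lineages, showed no detectable difference, at 0.24 ± 0.16 (edgeR adjusted p 0.391).

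The precursors induced by Toll-like receptor 4 and NF-κB gave 1 of 5 tested as higher in IL-10 cells, mir-21a, beside 8.11% higher over all tested precursors. The count was 3 with a mean of at least 50 counts required and 4 without TGF-β library 2. mir-146a and mir-146b, which dampen that pathway by repressing Traf6 and Irak1, overlapped between the groups. mir-146a had 1476, 1382 and 1734 normalised CPM in IL-10 libraries, against 1110, 1452 and 992 in TGF-β libraries (0.37 ± 0.15, edgeR adjusted p 0.126). mir-146b differed by 0.39 ± 0.15 (edgeR adjusted p 0.105). Without TGF-β library 2 both passed, at 0.55 and 0.57 (edgeR adjusted p 0.0219 and 0.0169), and they passed with the higher count minimum too. mir-155, an inducer of inflammatory cytokine production, had 27.3, 29.9 and 49.3 normalised CPM in IL-10 libraries, against 10.7, 25.6 and 11.2 in TGF-β libraries. These levels are close to the counting limit, and the difference of 1.16 ± 0.44 did not pass (edgeR adjusted p 0.0898), but did without TGF-β library 2 (1.67, adjusted p 0.0318). mir-132, lower still, differed by 1.36 ± 0.65 (edgeR adjusted p 0.209), and mir-187, reported in human monocytes to be induced through IL-10, was at 0 in all 6 libraries.

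The precursors linked to IL-10 or STAT3 gave 1 of 3 tested as higher and none as lower, and those linked to TGF-β or SMAD gave 1 of 11 as higher and none as lower in IL-10 cells. The share higher over all tested precursors was 8.11%, close to that of the TGF-β list. Without TGF-β library 2 the counts were 3 and 2, and with a mean of at least 50 counts required the IL-10 list gave 2. In both lists the precursor that passed was mir-21a, which the literature ties to STAT3 and to SMAD proteins alike. In that list, mir-23a differed by -0.22 and mir-181a-1 by -0.53, both short of the threshold (edgeR adjusted p 0.368 and 0.348). The miR-23/27/24 clusters gave 0 of 6 tested, with a median of -0.10.

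**Figure D2:**
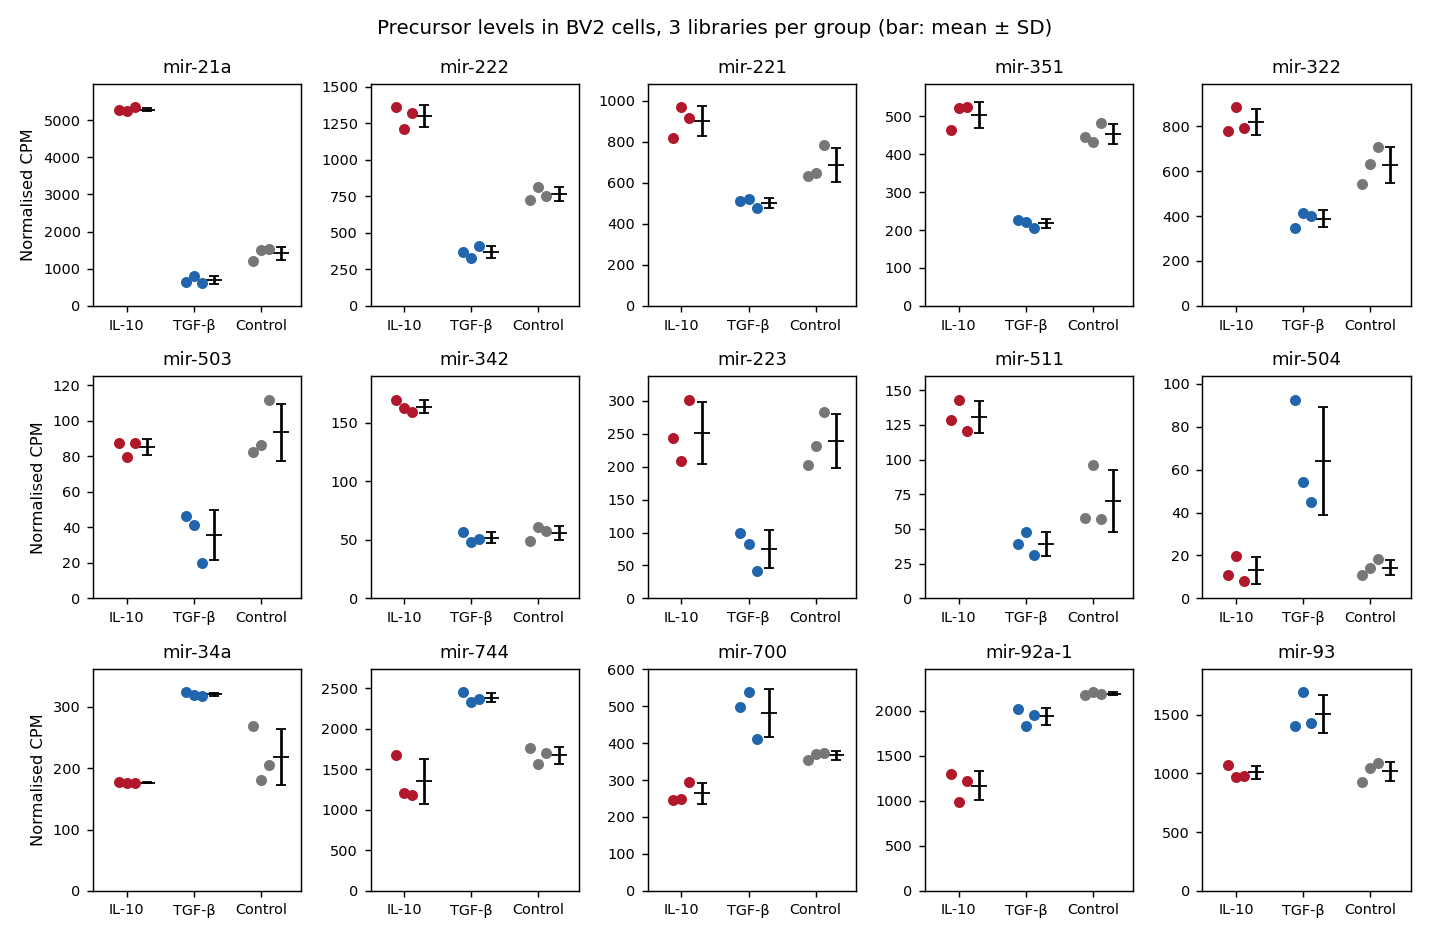
Normalised CPM of 15 precursors (vertical axes, each starting at 0) in the 3 IL-10, 3 TGF-β and 3 control libraries, as points, with mean ± SD as bars. For mir-21a and mir-222 the control libraries lie between the cytokine groups, for mir-342 they lie with TGF-β, and for mir-351 and mir-223 they lie with IL-10.

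Of the 21 precursors higher in IL-10 cells, 12 differed by less than 2-fold, mir-221 among them. mir-28a, in an intron of Lpp, had 407, 495 and 403 normalised CPM in IL-10 libraries, against 221, 265 and 228 in TGF-β libraries (0.86 ± 0.16, edgeR adjusted p 0.000299). mir-501 and mir-500, which lie in an intron of Clcn5 on the X chromosome and share the seed AUGCACC, were higher by 0.87 ± 0.21 and 0.74 ± 0.24 (edgeR adjusted p 0.00574 and 0.043). mir-7a-2 and mir-7b, whose mature arms differ by A10U (counted from the 5′ end, miR-7a first), were higher by 0.66 ± 0.19 and 0.70 ± 0.21, both with an edgeR adjusted p of 0.0223. The copy mir-7a-1 differed by 0.25 ± 0.14 and did not pass (edgeR adjusted p 0.307); reads of these near-identical arms may have been divided among the loci, so the values of single loci are uncertain. mir-877, a mirtron of Abcf1, was higher by 0.55 ± 0.14, mir-674 by 0.51 ± 0.13, mir-340 by 0.61 ± 0.17 and mir-3963 by 0.79 ± 0.23 (edgeR adjusted p 0.00663, 0.00968, 0.0181 and 0.0223). Of the precursors in this paragraph, mir-28a, mir-501 and mir-674 held with every library left out in turn. mir-7a-2 and mir-7b did not pass without IL-10 library 1 or TGF-β library 1 (0.43 to 0.56, edgeR adjusted p 0.13 to 0.246). mir-500 did not pass without any library but TGF-β library 1 (0.66 to 0.75, adjusted p 0.0831 to 0.168). mir-877, mir-340 and mir-3963 did not pass without TGF-β library 3 (0.48, 0.49 and 0.65, edgeR adjusted p 0.0541, 0.0969 and 0.116), and neither did mir-340 without IL-10 library 2 or mir-3963 without IL-10 library 1 (0.51 and 0.70, edgeR adjusted p 0.0792 and 0.0768).

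In the miR-29 family, which represses collagens and other matrix genes, 1 of 4 tested precursors was higher, mir-29b-1 (0.67 ± 0.23, edgeR adjusted p 0.0495), beside 8.11% higher over all tested precursors. Its call was lost in 12 of 16 alternative settings, among them without IL-10 library 1 or 3 or TGF-β library 1 or 3 (0.58 to 0.65, edgeR adjusted p 0.116 to 0.205). The copy mir-29b-2, with the same mature arm, differed by 0.62 ± 0.27 and did not pass (edgeR adjusted p 0.157), and mir-29a and mir-29c lay at 0.10 and 0.00. mir-210, the microRNA of the hypoxia response, had 1558, 675 and 1340 normalised CPM in IL-10 libraries, against 1081, 451 and 599 in TGF-β libraries. Library 2 was the lowest in each group, the groups overlapped, and the difference of 0.76 ± 0.30 did not pass (edgeR adjusted p 0.0974). It passed without IL-10 library 2 (1.04, edgeR adjusted p 0.0182) and without TGF-β library 1 (1.18, adjusted p 0.00339).

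Among precursors that were lower in IL-10 cells, mir-504 had the largest fitted difference. It lies in an intron of Fgf13 on the X chromosome. It passed the filter on low counts only through its 3 TGF-β libraries, so it could enter the test only by being high there. It had 10.9, 19.9 and 8.22 normalised CPM in IL-10 libraries, against 92.5, 54.4 and 45.0 in TGF-β libraries. In counts these are 4, 6 and 3 in IL-10 libraries, against 26, 17 and 16 in TGF-β libraries. The IL-10 libraries were near the counting limit and all below the TGF-β libraries, and the fitted difference of -2.27 ± 0.47 (log2, edgeR adjusted p 0.00113) is imprecise in size for that reason. Control cells averaged 14.4 ± 3.59 normalised CPM (SD, n = 3), and mir-504 rose by 2.11 ± 0.45 in TGF-β cells (edgeR adjusted p 0.00309), against a difference of -0.17 ± 0.60 in IL-10 cells (adjusted p 0.889).

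mir-34a, known for restraining cell proliferation, had 178, 176 and 175 normalised CPM in IL-10 libraries, against 324, 320 and 318 in TGF-β libraries. The 3 libraries of each group nearly coincided, and the difference was -0.86 ± 0.17 (log2, edgeR adjusted p 0.000997). mir-744, in an intron of Map2k4, had 1675, 1210 and 1178 in IL-10 libraries, against 2451, 2334 and 2375 in TGF-β libraries (-0.82 ± 0.14, edgeR adjusted p 0.00022). mir-700, within a transcript of Rcan3, had 246, 249 and 296 in IL-10 libraries, against 498, 537 and 410 in TGF-β libraries (-0.86 ± 0.15, edgeR adjusted p 0.000178). For mir-34a and mir-744 the rise against control cells in TGF-β cells passed, at 0.56 ± 0.17 and 0.51 ± 0.14, and the IL-10 values of -0.30 ± 0.18 and -0.31 ± 0.14 did not (edgeR adjusted p 0.0466, 0.0252, 0.289 and 0.177).

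mir-703, mir-6238, mir-682, mir-7067, mir-2137 and mir-6240 were also lower, by 0.50 to 1.37 on the log2 scale. The calls of mir-703, mir-6238 and mir-682 held with every library left out in turn. mir-7067 did not pass without any of 5 of the 6 libraries, all but TGF-β library 2 (-1.10 to -0.67, edgeR adjusted p 0.0604 to 0.268). mir-2137 did not pass without IL-10 library 3, TGF-β library 2 or TGF-β library 3 (-0.57 to -0.36, edgeR adjusted p 0.0502 to 0.217). Of these, mir-703 had 150, 146 and 104 normalised CPM in IL-10 libraries, against 398, 243 and 391 in TGF-β libraries (-1.37 ± 0.21, edgeR adjusted p 6.36e-05). mir-6240 stands in the list of precursors that overlap ribosomal RNA, transfer RNA or small nucleolar RNA. In that list mir-6240 was the 1 of 5 tested that passed (-0.50 ± 0.14, edgeR adjusted p 0.0189), beside 6.56% lower over all tested precursors. It did not pass without IL-10 library 3 or TGF-β library 2 (-0.47 and -0.46, edgeR adjusted p 0.0716 and 0.0502). The summed level of that list was 8246 to 9912 normalised CPM in IL-10 cells and 8569 to 11966 in TGF-β cells, so the groups overlapped.

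The miR-17-92 cluster and its paralogs, which promote proliferation, gave 4 of 12 tested precursors as lower in IL-10 cells and none as higher, beside 6.56% lower over all tested precursors. The 4 include both mir-92a copies. The median of the 12 was -0.33, and 11 of the 12 values were negative. Of these, mir-19a, mir-19b-1 and mir-19b-2 showed no detectable difference, at -0.012, -0.0037 and -0.014 (edgeR adjusted p 0.975, 0.997 and 0.975). The chromosome 14 copy mir-92a-1 had 1298, 987 and 1216 normalised CPM in IL-10 libraries, against 2024, 1836 and 1959 in TGF-β libraries (-0.73 ± 0.13, edgeR adjusted p 0.000351). The X-chromosome copy mir-92a-2 differed by -0.75 ± 0.13 (edgeR adjusted p 0.000222); the copies give the same mature arm, so their counts may come from shared reads. mir-93, within a transcript of Mcm7, had 1074, 970 and 978 in IL-10 libraries, against 1402, 1688 and 1425 in TGF-β libraries (-0.58 ± 0.14, edgeR adjusted p 0.00416). mir-106a was lower, at -0.52 ± 0.17 (edgeR adjusted p 0.0475), with IL-10 library 1 above the lowest TGF-β library. Its mature arm is nearly that of mir-17, and their reads may be shared, so mir-106a is uncertain as a separate precursor. Of its X-chromosome paralogs, mir-363 was at 0 in both groups, and mir-20b had 1 count over the IL-10 libraries and 0 over the TGF-β libraries. The call of mir-106a was unstable. It did not pass without IL-10 library 2 or 3 or TGF-β library 2 or 3 (-0.53 to -0.40, edgeR adjusted p 0.115 to 0.209).

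The family members differed in where control cells lay. mir-92a-1 fell by 0.91 ± 0.13 in IL-10 cells against control (edgeR adjusted p 5.3e-05) and differed by -0.17 ± 0.13 in TGF-β cells (adjusted p 0.446). mir-93 rose by 0.56 ± 0.14 in TGF-β cells (edgeR adjusted p 0.00892) and differed by -0.02 ± 0.14 in IL-10 cells (adjusted p 0.951). By seed, all 5 tested precursors with AUUGCAC lay between -0.75 and -0.27, and all 5 with AAAGUGC between -0.58 and -0.13. Of each seed group 2 passed, beside 6.56% lower over all tested precursors, and those with AUUGCAC are the mir-92a copies. The values of the 6 precursors of the miR-17-92 transcript on chromosome 14 were not uniform. mir-17 differed by -0.40 ± 0.14 and mir-18a by 0.70 ± 0.32 on the log2 scale, and neither passed (edgeR adjusted p 0.0676 and 0.176). Without IL-10 library 1 mir-17 passed (-0.55, edgeR adjusted p 0.0251). mir-324, outside this family, was lower, at -0.63 ± 0.14 (edgeR adjusted p 0.002).

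The let-7 family restrains growth and is the bulk of these libraries, and 2 of its 14 tested precursors were lower in IL-10 cells while none was higher, beside 6.56% lower over all tested precursors. Without IL-10 library 3, TGF-β library 1 or TGF-β library 2 the count of lower precursors was 0, with let-7i at -0.41 to -0.36 and let-7j at -0.45 to -0.37 (edgeR adjusted p 0.0545 to 0.152). Without IL-10 library 1, or with library totals alone, 3 of the 14 were higher. The family median was 0.17, with 9 values positive and 5 negative. let-7a-1, the most abundant tested precursor in IL-10 cells, differed by 0.27 ± 0.13 (edgeR adjusted p 0.211), and passed without IL-10 library 1 (0.31, adjusted p 0.0455). let-7i had 2402, 2502 and 2129 normalised CPM in IL-10 libraries, against 3219, 3406 and 2808 in TGF-β libraries (-0.42 ± 0.13, edgeR adjusted p 0.0277). let-7j was lower, at -0.46 ± 0.13 (edgeR adjusted p 0.0223). The mature arms of let-7i and let-7j, printed above, differ over 22 bases by G8U alone (let-7i first, counted from the 5′ end), and their reads may be shared, so they are uncertain as separate precursors. Both rose against control cells under TGF-β, by 0.74 ± 0.13 and 0.80 ± 0.13 (edgeR adjusted p 0.000345 and 0.000236), and the IL-10 values of 0.32 ± 0.13 and 0.34 ± 0.13 did not pass (adjusted p 0.12 and 0.111).

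**Figure D3:**
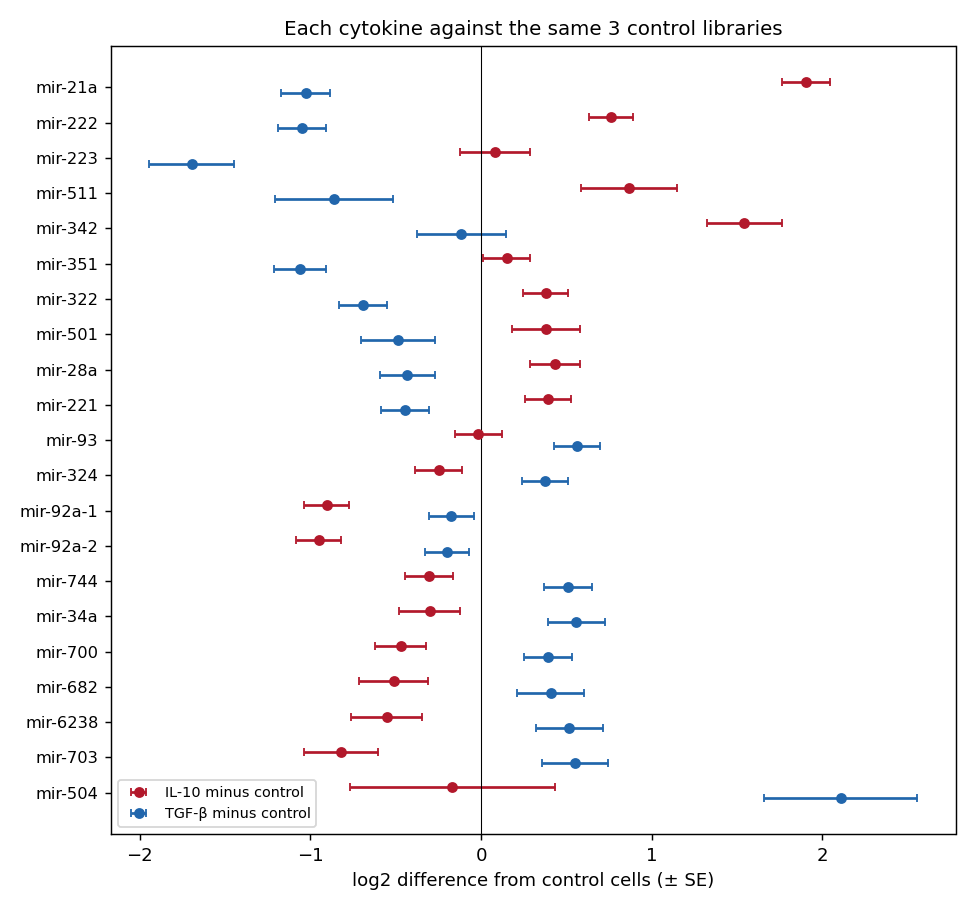
Difference of IL-10 (red) and of TGF-β (blue) cells from the same 3 control libraries, on the log2 scale ± SE, for the 21 precursors whose IL-10 against TGF-β call held under every alternative setting in which they were tested. mir-21a and mir-222 lie on opposite sides of 0 for the cytokines, mir-342 departs from 0 with IL-10, and mir-223, mir-351 and mir-504 depart with TGF-β.

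Several lists gave no call. None of the 67 tested precursors of the Sfmbt2 intronic cluster list passed (median -0.05). That list was chosen by name, not by position, and its member mir-467h maps to chromosome 9 with no host gene. Many of its members are numbered copies, so the 67 are not independent. Nor did any pass of the 6 of the miR-30 family (median 0.02), the 4 of the miR-15/16 family (median -0.09) or the 2 of the miR-181 family (median -0.54). let-7e, the tested member of the miR-99b cluster, differed by 0.30 (edgeR adjusted p 0.179), and passed without IL-10 library 1 (0.35, adjusted p 0.0497) and with library totals alone (0.24, adjusted p 0.0272). mir-99b and mir-125a of that cluster were at 0 in both groups. The mature arms of let-7a and let-7e differ by U9G alone (let-7a first), and their reads may be shared, so let-7e is uncertain as a measure of that cluster. The 2 tested precursors of neurons and other glia, mir-128-1 and mir-128-2, lay at -0.04 and -0.17, and mir-126a, the tested precursor of the other tissues, at -0.51; none passed.

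**Figure D4:**
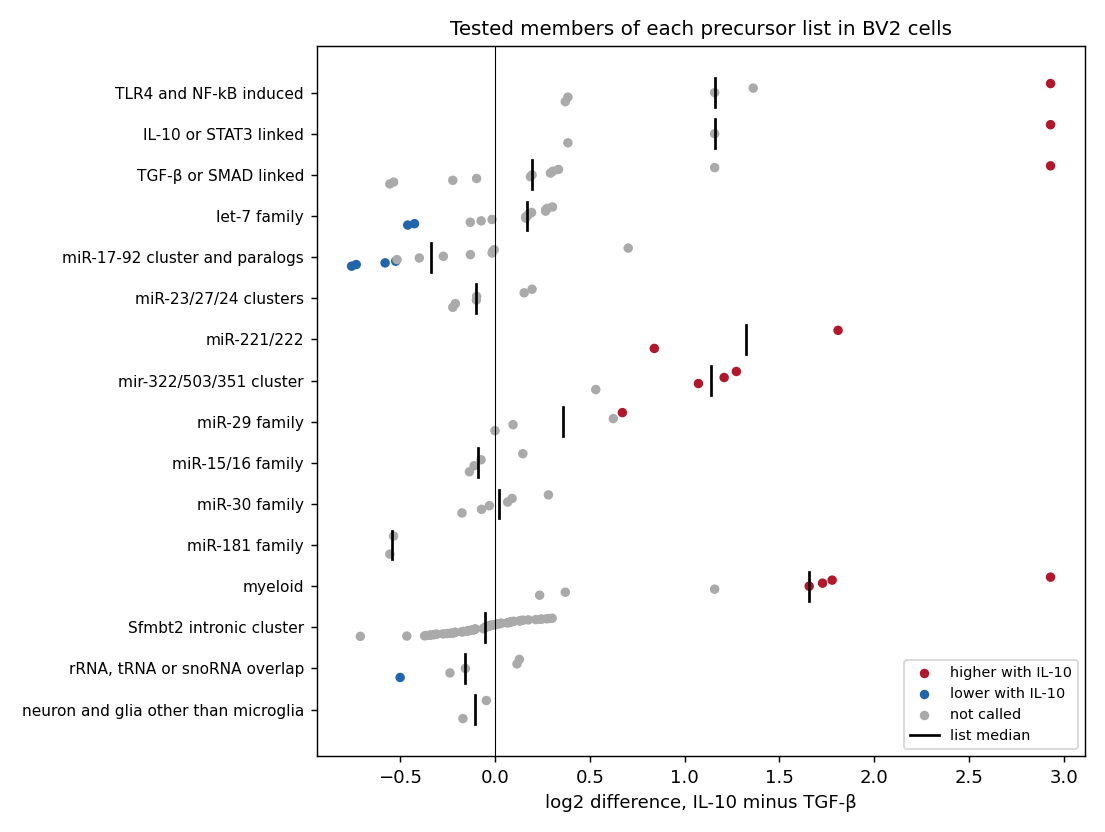
Log2 difference between IL-10 and TGF-β cells (horizontal axis) for each tested member of the precursor lists, in red where higher, in blue where lower and in grey where the test did not pass, with the list median as a black bar. The miR-221 and miR-222, mir-322 and myeloid lists lie to the right, and the Sfmbt2 list, chosen by name, is spread around 0. The miR-17-92 list lies to the left except for mir-18a, with mir-19a, mir-19b-1 and mir-19b-2 near 0.

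In EVs the same contrast gave 0 of 71 tested precursors (0%) by edgeR at an adjusted p under 0.05, with 3 (4.23%) at an unadjusted p under 0.05. The groups did not overlap for 2 of the 71 (2.82%), mir-1903 above and mir-7000 below in IL-10 EVs (1.41% each). DESeq2 also gave 0, with 6 at an unadjusted p under 0.05. The EV libraries were shallow, with 15402 to 17724 counts for IL-10 and 15071 to 16728 for TGF-β. mir-6236, of the list that overlaps ribosomal RNA, transfer RNA or small nucleolar RNA, took 10660 to 13213 of those counts per library. The let-7 family took 9.33% of the counts in IL-10 EV library 1, against 2.51% and 2.81% in IL-10 EV libraries 2 and 3. The median SE of a difference was 0.811 in EVs against 0.185 in cells. Of the 38 precursors that passed in cells 9 were tested in EVs, of which 5 had the same sign and 4 the opposite sign. Over all 58 precursors tested in both, 33 had the same sign.

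mir-21a had 17, 1 and 5 counts in IL-10 EVs, against 1, 4 and 3 in TGF-β EVs, so the groups overlapped and the difference of 1.01 ± 0.93 was not detectable at this depth (edgeR adjusted p 0.883). mir-223, mir-511, mir-503 and mir-504 were at 0 in all 6 EV libraries. mir-6238, lower in IL-10 cells, had 232, 34 and 223 counts in IL-10 EVs, against 21, 112 and 85 in TGF-β EVs, and did not pass. The smallest p-values in EVs belonged to mir-1903, with 6, 16 and 2 counts in IL-10 EVs against 0, 2 and 0 in TGF-β EVs, and to mir-203, with 49, 20 and 9 against 158, 16 and 41. Their differences were 3.42 ± 1.27 and -1.99 ± 0.80, both with an edgeR adjusted p of 0.883.

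Whether the contrast itself differed between EVs and cells was tested over all 24 libraries, and 0 of 280 precursors (0%) passed by edgeR, with 24 (8.57%) at an unadjusted p under 0.05. DESeq2 gave 4, mir-27a, mir-27b, mir-151 and mir-342, with 33 at an unadjusted p under 0.05. mir-151 had 0, 0 and 0 counts in IL-10 EVs, against 0, 9 and 1 in TGF-β EVs. mir-342 had 0, 0 and 0 against 0, 0 and 5, so its EV counts all came from TGF-β library 3. mir-27b had 0, 1 and 0 counts in IL-10 EVs, against 5, 7 and 2 in TGF-β EVs, and its edgeR value, EV difference minus cell difference, was -4.38 ± 1.06 (adjusted p 0.0653). mir-27a had 0, 1 and 1 counts against 5, 8 and 6, with -3.85 ± 0.96 (edgeR adjusted p 0.0653). mir-744 went the other way, with 6, 3 and 1 counts in IL-10 EVs against 0, 1 and 0 in TGF-β EVs (3.70 ± 1.01, edgeR adjusted p 0.113). All of these rest on at most a handful of counts in each EV library.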

How the data were processed

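Total RNA was extracted with the miRNeasy kit and small RNA libraries were made with the SMARTer kit and 18 PCR cycles, per the labels' protocols. The deposited tables hold whole-number counts per microRNA precursor, raw per the values. 6 tables were used. The control columns repeat among the tables of cells and among those of EVs, and were used once. The submitters' processing notes name DESeq2; the sources used here do not give the aligner, build or annotation, so no coordinates are printed. Columns name the group and a number, not the sample title.

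Counts were joined by precursor name over 1187 precursors (590 at 0 in all 6 libraries compared). edgeR 4.0.16 (R 4.3.3; limma 3.58.1) was run on 12 cell libraries together, control and LPS included (TMM, filterByExpr with a minimum count of 10, glmQLFTest, 8 residual degrees of freedom), on 12 EV libraries, and on all 24. P-values were Benjamini-Hochberg adjusted over all precursors of each fit. SE is the log2 difference divided by the root of F. The fit was tested on simulated data. DESeq2 1.42.0, other scalings and filters, and left-out libraries were alternatives. No replicate pair was identical or within sampling noise (chi-square over degrees of freedom 8.92 to 19.4 in cells).

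The precursors and lists were chosen with earlier results of these data known. Named in cells were, in each direction, the 15 called, non-overlapping precursors of lowest p, a preset list, and up to 4 called members of each list. Among called precursors, mir-500, mir-7b, mir-1981, mir-3963, mir-574 and mir-7067 lay outside this rule and were added after their values were seen. Chromosomes and host genes come from RefSeq (GRCm38.p6) and GENCODE M21.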

Additional observations from a re-analysis of the deposited data

How the results depend on the processing

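The 38 calls in cells numbered 30 to 38 under other scalings, filters, tests, priors and fits, and 27 to 37 with 1 library left out at a time (13 to 24 higher, 13 to 19 lower). The 13 came without TGF-β library 3. With 1 copy kept per set of numbered copies the 38 calls were 17 higher and 21 lower, against 21 and 17. With the header number as a replicate block, fitted on the compared groups only, 24 were called, 12 of them higher. Without the block the compared groups alone gave 37. Deviations of same-numbered libraries correlated at -0.04, 0.26 and -0.05, and those of unlike numbers at -0.27 to 0.38. With 3 libraries in a group these values cannot show whether the number pairs libraries, and the sample labels do not carry it. Of the 38, 21 kept their call in every alternative in which they were tested, among them mir-21a, mir-222, mir-223, mir-342, mir-351 and mir-504. mir-106a, mir-500, mir-29b-1, mir-574 and mir-1981 lost it in 8 or more. With library totals alone the median of all tested precursors was -0.06 and mir-7a-2, mir-7b, mir-29b-1, mir-500, mir-574, mir-1981 and mir-106a were not called. Over 56 precursors, those named by the rule and the other called ones, 2 of 863 values changed sign. Both came with a library left out and neither was called. mir-29a spanned -0.019 (without TGF-β library 3) to 0.23 (without TGF-β library 2), and mir-128-2 -0.35 (without IL-10 library 3) to 0.079 (without TGF-β library 2). The cause was not tested. EVs gave 0 calls in each alternative. The difference between EVs and cells gave 4 calls by DESeq2, 3 with a mean of at least 10 counts over all 24 libraries, cells included, and 1 with only the compared groups fitted. EV depth limits it: 3 counts are 169 to 195 CPM in an IL-10 EV library and 179 to 199 in a TGF-β one.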

Other observations

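Of the 25 tested precursors that map to the X chromosome in RefSeq, 12 were called between IL-10 and TGF-β cells, 8 as higher and 4 as lower in IL-10 cells, against 38 of the 181 tested precursors with a position (21.0%). This split was looked at after the values were seen and was not tested. The 25 are not independent, since mir-221 and mir-222, mir-322, mir-351 and mir-503, mir-500 and mir-501, and mir-106a and mir-92a-2 lie in clusters. mir-92a-2 gives the same mature arm as mir-92a-1 on chromosome 14, and mir-106a gives nearly that of mir-17 on chromosome 14. Their reads may be shared, so these lower calls are uncertain as X-chromosome calls.

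The intron of Clcn5 that holds mir-500 and mir-501 also holds mir-188, mir-362 and mir-532, which were chosen after their values were seen. Their differences were 0.65 ± 0.32, 0.51 ± 0.39 and 0.35 ± 0.12 on the log2 scale, all positive and none past the threshold (edgeR adjusted p 0.209, 0.478 and 0.0676). mir-532, the most abundant of them, had 1085, 1120 and 1173 normalised CPM in IL-10 libraries, against 850, 953 and 852 in TGF-β libraries, without overlap.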
